A study of Mus musculus with 12 samples.

Results

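The genes described here are a set of 35 mouse genes that type I interferon induces in most cell types, chosen by name for their antiviral roles. The choice was made with earlier results of these data known. A probe could be matched by its transcript accession for 32 of the 35, and 31 passed the filter on dim probes, among 12295 named genes and 22981 features tested in all. Mx1, Mx2 and Ifi203 were not matched to a probe, so their expression is not analysed here. Oas1g was matched but not tested, because it was well above background on 1 knockout stimulated, 1 control stimulated, 3 knockout resting and 1 control resting array with no single probe meeting the filter. The remaining members comprise 4 sensors of foreign nucleic acid, 5 members of the OAS family, 3 of the IFIT family, 5 other effectors that act on viral replication or release, 2 enzymes that act on translation or double-stranded RNA, 4 genes of the ISG15 conjugation system and 8 further genes. These 8 have mixed roles, and nuclear, signalling and pro-apoptotic genes are among them.

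RNA of splenic B cells was measured on 12 one-colour Agilent arrays, 3 in each of 4 groups. Knockout cells carried B1-8hi, a knock-in antibody heavy chain gene, with floxed Sub1 and Mb1-Cre (B1-8hi:Sub1fl/fl-Mb1-Cre), and control cells carried B1-8hi with floxed Sub1 and no Cre (B1-8hi:Sub1fl/fl). Cells of each genotype were either stimulated in culture for 72 h with NP-ficoll, CD40 ligand and cytokines (IL-5, IL-4, IL-2), or taken resting. No time in culture is given here for resting cells, so the stimulus and 72 h in culture cannot be told apart. NP-ficoll is an antigen that B1-8hi receptors bind. The groups are called knockout stimulated, control stimulated, knockout resting and control resting below. Sub1 encodes PC4, a transcriptional coactivator and single-stranded DNA binding protein, and Mb1-Cre is a recombinase expressed from Cd79a in cells of the B lineage. Sub1 loss, the presence of Cre and a lower Cd79a level therefore cannot be told apart in these groups. The series examined the function of PC4 in B cells and names the transcription factors IKAROS and IRF4.

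Type I interferons bind the receptor formed by IFNAR1 and IFNAR2, whose kinases JAK1 and TYK2 activate a complex containing IRF9. This complex binds the interferon-stimulated response element in the promoters of antiviral genes, while interferon gamma acts through IFNGR1, IFNGR2, JAK1 and JAK2 on gamma-activated sites and induces IRF1. Many antiviral genes are also expressed at a low level without infection, and B cells express both receptors.

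The promoters below are shown because the members they belong to carry the main results, and because such elements are what the pathway acts on. Each is the 250 bases before the gene's annotated start, read 5′ to 3′ on the gene's strand, from RefSeq for mouse build GRCm38.p6. They lie at chr19:34550444-34550693 on the plus strand for Ifit2, chr7:78913174-78913423 on the plus strand for Isg20, chr5:114922990-114923239 on the plus strand for Oasl1, chr19:34583279-34583528 on the plus strand for Ifit3, chr4:156200819-156201068 on the minus strand for Isg15 and chr5:120907526-120907775 on the minus strand for Oas1a. Capitals mark matches on either strand to the core of the interferon-stimulated response element, GAAA and GAAA separated by any 2 bases, or of the gamma-activated site, TTCNNNGAA. Isg15 and Oas1a were added for their matches.
Ifit2: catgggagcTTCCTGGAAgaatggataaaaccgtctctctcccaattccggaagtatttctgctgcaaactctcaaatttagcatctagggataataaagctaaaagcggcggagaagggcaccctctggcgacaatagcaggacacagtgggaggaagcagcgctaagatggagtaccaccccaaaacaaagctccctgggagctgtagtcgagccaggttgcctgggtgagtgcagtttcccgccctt
Isg20: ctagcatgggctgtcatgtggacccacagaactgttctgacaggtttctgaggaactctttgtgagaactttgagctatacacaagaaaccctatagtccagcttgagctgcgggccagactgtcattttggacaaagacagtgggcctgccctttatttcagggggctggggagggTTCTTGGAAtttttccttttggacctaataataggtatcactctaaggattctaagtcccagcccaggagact
Oasl1: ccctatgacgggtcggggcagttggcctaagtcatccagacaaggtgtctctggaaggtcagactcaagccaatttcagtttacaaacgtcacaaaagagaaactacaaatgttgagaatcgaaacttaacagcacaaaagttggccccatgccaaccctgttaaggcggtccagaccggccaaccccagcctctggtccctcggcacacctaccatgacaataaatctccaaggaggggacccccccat
Ifit3: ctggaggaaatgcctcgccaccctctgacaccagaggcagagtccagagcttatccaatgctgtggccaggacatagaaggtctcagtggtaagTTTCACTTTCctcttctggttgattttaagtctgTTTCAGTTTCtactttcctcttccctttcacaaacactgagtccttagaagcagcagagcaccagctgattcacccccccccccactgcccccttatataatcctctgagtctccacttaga
Isg15: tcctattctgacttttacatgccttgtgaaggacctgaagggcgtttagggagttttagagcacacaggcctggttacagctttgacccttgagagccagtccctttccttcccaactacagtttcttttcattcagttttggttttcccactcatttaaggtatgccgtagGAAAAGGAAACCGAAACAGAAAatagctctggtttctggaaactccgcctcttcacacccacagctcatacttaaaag
Oas1a: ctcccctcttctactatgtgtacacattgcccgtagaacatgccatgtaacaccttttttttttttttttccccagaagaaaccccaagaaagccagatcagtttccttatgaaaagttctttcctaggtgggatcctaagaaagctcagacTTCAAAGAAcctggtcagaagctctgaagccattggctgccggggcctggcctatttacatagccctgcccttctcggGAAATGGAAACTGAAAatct

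The response element core occurred 156 to 147 and 122 to 113 bases before the start of Ifit3. In Isg15 it occurred as 3 overlapping matches 78 to 57 bases before the start, and in Oas1a as overlapping matches 20 to 11 and 14 to 5 bases before it. The gamma-activated core occurred 98 to 90 bases before the start of Oas1a, 73 to 65 before that of Isg20 and 241 to 233 before that of Ifit2. Oasl1 held neither run of letters in this window, and Ifit2 and Isg20 are each represented by the first of 2 and 3 annotated windows. Of the 24 members with a promoter in the table, 12 (50%) held the response element core within 250 bases before to 50 bases after the start, against 1079 of 27025 genes (3.99%). Ifi203 and Oas1g, whose expression was not tested, are among the 12. The gamma-activated core occurred in 7 of the 24 (29.2%), against 2582 of 27025 genes (9.55%). Overlapping matches were counted together within a window, and in Bst2 the cores of both kinds overlap. A match is a run of letters and not a measured binding site.

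Levels are the log2 of the processed spot intensity minus the 75th percentile of the same array, so that 0 is the level of the spot at that percentile and negative values lie under it. Spots well above background made up 24.3% to 76.8% of an array, and between 13 and 32 members were well above background on an array, the lowest number on control stimulated replicate 2. Knockout stimulated arrays had 64.5%, 42.6% and 76.8%, with 28, 26 and 32 members. Control stimulated arrays had 36.6%, 24.3% and 60.1%, with 20, 13 and 28 members, lower at each replicate number. The part of this difference in the knockout comparison of stimulated cells was not tested. On knockout stimulated arrays Oas3 and Ifit1 were well above background on 1 of 3 and Oas2, Oasl2, Ifit3 and Rsad2 on 2 of 3. On control stimulated arrays Ifit1, Ifit2, Ifit3 and Rsad2 were well above background on none, Ifih1, Oas2, Oas3, Oasl2, Rtp4 and Herc6 on 1 of 3, and Dhx58, Oas1a, Oasl1, Cmpk2, Eif2ak2, Usp18, Sp100, Xaf1 and Ifi44 on 2 of 3. Folds of these genes that involve stimulated arrays rest partly on values not above background and are imprecise. Replicates 1 and 2 of every group lay on slide 1 and replicate 3 on slide 2. The labels do not say whether replicates came from separate mice, so the spread behind each p-value may be technical, and 3 arrays a group limit the precision. Sub1 levels were 6.72, 6.87 and 6.92 on knockout stimulated arrays and 8.19, 7.79 and 8.15 on control stimulated arrays, a change of -1.21 (SE 0.19, adjusted p = 0.0114). The call held in 19 of 26 other settings, with changes from -1.77 to -0.56. It ended, among others, with the mean over the Sub1 probes and without replicate 1 of the control genotype in both states. On resting arrays Sub1 levels were 5.37, 5.80 and 5.77 in knockout and 6.07, 6.02 and 6.0 in control cells, a change of -0.38 with an adjusted p of 0.268. Cd79a changed by -1.10 in stimulated cells (adjusted p = 0.0343) and by -1.54 in resting cells (adjusted p = 0.0948), knockout over control. Xist, which is transcribed from the inactive X chromosome of female cells, was well above background on all arrays except replicate 1 of control stimulated and of control resting cells, at -3.91 and -4.42. The counts and calls that end without that control replicate are given below.

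**Figure D1:**
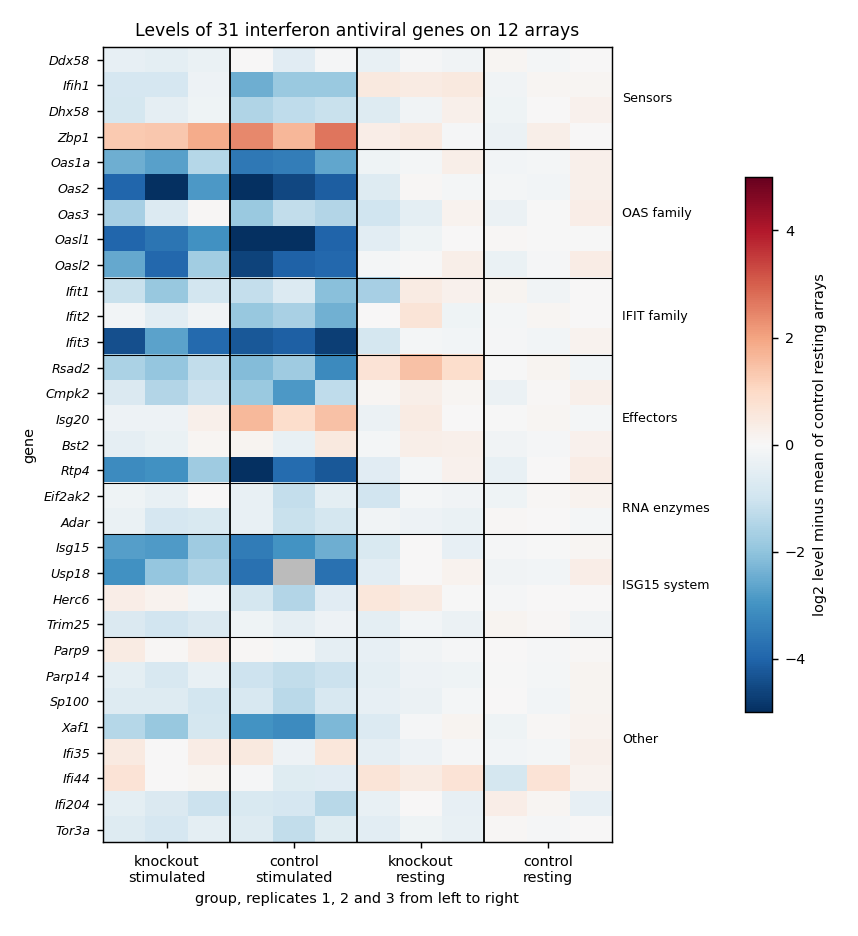
Levels of the 31 tested members (vertical axis, grouped by role) on the 12 arrays (horizontal axis, replicates 1 to 3 within each group). The colour is the log2 level minus the mean of the control resting arrays, and grey marks a missing value. Oasl1, Oas2, Ifit3, Rtp4 and Usp18 are among the darkest blue, that is lowest, on the stimulated arrays of both genotypes, and less so in knockout cells, while Zbp1 is above its resting level there.

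Stimulation was examined first, to see at what level each genotype held the antiviral genes in either state. In knockout cells 12 of the 31 members fell on stimulation and 1 rose, and in control cells 21 fell and 2 rose (limma, adjusted p below 0.05). Over all features the percentages called were 16.1% in knockout cells (5.2% lower and 10.9% higher) and 27.8% in control cells (13.1% lower and 14.7% higher). The share of members that fell was above the background in both genotypes, but it is not independent of the filter on dim probes. Oas2, Oas3, Oasl2, Ifit1, Ifit3 and Rsad2 passed that filter only through resting arrays, where their mean levels are higher. The median change of the members was -0.46 in knockout cells and -1.30 in control cells, while the median over all features was 0.10 in knockout and 0.04 in control cells. The 12 members that fell in knockout cells all fell in control cells as well, 9 more fell in control cells, and 8 were called in neither genotype. With only probes above background on all 12 arrays, 12 members were tested. Of those 2 rose and 2 fell in knockout cells, and 2 rose and 5 fell in control cells. The counts under either filter do not compare the genotypes, and the test of that difference is given further below.

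The OAS family comprises synthetases that make 2′-5′ oligoadenylates on binding double-stranded RNA and so activate RNase L, together with OAS-like proteins, of which mouse Oasl1 lacks this activity. All 5 tested members fell in control cells and 4 of 5 in knockout cells. Oasl1, which represses translation of Irf7 mRNA, had levels of -0.10, 0.20 and 0.82 on knockout stimulated arrays against 3.32, 3.63 and 3.89 on knockout resting arrays. In control cells Oasl1 levels were -1.50, -2.13 and -0.14 stimulated against 3.90, 3.82 and 3.84 resting. The stimulated and resting levels did not overlap in either genotype. Oasl1 fell 9.9-fold in knockout cells (change -3.31, SE 0.44, adjusted p = 0.000622) and 34.5-fold in control cells (change -5.11, adjusted p = 2.22e-05).

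Oas2 had levels of -1.72, -3.59 and -0.62 on knockout stimulated arrays against 1.62, 2.30 and 2.16 on knockout resting arrays. In control cells its levels were -3.13, -2.28 and -1.87 stimulated against 2.14, 2.12 and 2.51 resting. Every resting array thus lay above every stimulated array, with the widest spread among the knockout stimulated arrays. Oas2 fell 16-fold in knockout cells (change -4.00, SE 0.62, adjusted p = 0.00153) and 25.7-fold in control cells (change -4.68, adjusted p = 0.000269), where only 1 of 3 stimulated arrays was well above background. On slide 1 the change in knockout cells was -4.62 and on slide 2 it was -2.78. Oasl2 had levels of -0.93, -2.27 and -0.10 on knockout stimulated arrays against 1.54, 1.61 and 1.94 on knockout resting arrays, and -3.01, -2.39 and -2.29 on control stimulated against 1.31, 1.58 and 2.02 on control resting arrays. Its stimulated arrays were again all below its resting arrays, and it fell 6.96-fold in knockout and 18.4-fold in control cells. Oas1a fell 4.53-fold in knockout and 9.2-fold in control cells. Oas3 fell 2.87-fold in control cells (adjusted p = 0.0212) and changed by -0.33 without passing the test in knockout cells.

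IFIT proteins bind viral RNA that lacks the methylated cap of host mRNA, or partner those that do. Ifit3 had levels of -2.73, -0.99 and -2.23 on knockout stimulated arrays against 0.79, 1.56 and 1.52 on knockout resting arrays. Its levels in control cells were -2.56, -2.40 and -3.05 stimulated, none of them well above background, against 1.60, 1.55 and 1.86 resting. Stimulated arrays of both genotypes were thus low and resting arrays high, without overlap. Ifit3 fell 9.66-fold in knockout cells (change -3.27, SE 0.41, adjusted p = 0.000431) and at least 10.5-fold in control cells (adjusted p = 3.38e-05). Ifit2 fell at least 2.01-fold in control cells (adjusted p = 0.000332) and changed by -0.45 in knockout cells (adjusted p = 0.34). Ifit1 changed by -0.97 in knockout cells and -1.32 in control cells (adjusted p = 0.288 in knockout and 0.0975 in control cells).

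Among the other effectors, Rtp4, a receptor-transporting protein with antiviral activity, had levels of 0.22, 0.32 and 1.60 on knockout stimulated arrays against 2.78, 3.27 and 3.58 on knockout resting arrays. Control cells had Rtp4 levels of -1.78, -0.49 and -0.89 stimulated against 3.0, 3.36 and 3.72 resting. No stimulated array reached a resting one. Rtp4 fell 5.65-fold in knockout cells (adjusted p = 0.00296) and 21.3-fold in control cells (adjusted p = 4.24e-05). Rsad2 encodes viperin, an enzyme that makes a chain-terminating nucleotide. Its levels were -1.88, -2.23 and -1.54 on knockout stimulated arrays against 0.36, 1.17 and 0.59 on knockout resting arrays, and -2.49, -2.09 and -3.48 on control stimulated against -0.31, -0.17 and -0.44 on control resting arrays. Resting arrays were higher in both genotypes without overlap, and Rsad2 fell 6.01-fold in knockout cells (adjusted p = 0.000752) and at least 2.7-fold in control cells, where it was not well above background on any stimulated array. Cmpk2, the neighbouring nucleotide kinase gene, fell 2.37-fold in knockout cells and 4-fold in control cells. Bst2, which encodes tetherin and holds budding virions at the membrane, passed the test in neither genotype. Isg20, a 3′ to 5′ exonuclease of single-stranded RNA, rose 2.51-fold in control cells (change 1.33, adjusted p = 0.00323) and changed by -0.15 in knockout cells (adjusted p = 0.805).

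Of the ISG15 system, Isg15, the ubiquitin-like modifier, fell 4.22-fold in knockout cells (change -2.08, adjusted p = 0.00223) and 7.83-fold in control cells (change -2.97, adjusted p = 0.000115). Usp18 encodes the protease that removes ISG15 and also dampens IFNAR signalling. Its levels were -1.84, -0.75 and -0.32 on knockout stimulated arrays against 0.65, 1.19 and 1.35 on knockout resting arrays, and -2.56 and -2.55 on control stimulated replicates 1 and 3 against 1.01, 1.04 and 1.52 on control resting arrays. No stimulated array reached a resting one, and Usp18 fell 4.09-fold in knockout and 13.4-fold in control cells, where the control stimulated mean rests on 2 arrays because the spot of replicate 2 was an outlier and treated as missing. Herc6, the ligase that attaches ISG15 in mice, fell in control cells (change -0.97, adjusted p = 0.0154) and changed by -0.19 in knockout cells. Trim25, a ubiquitin ligase of the RIG-I pathway, passed the test in neither. Among the members of mixed roles, Xaf1 fell 2.28-fold in knockout and 6.92-fold in control cells, and Parp14, Sp100, Ifi204 and Tor3a fell in control cells, with changes of -1.12, -0.99, -0.98 and -0.84. Adar, which edits adenosines in double-stranded RNA, fell in control cells (change -0.79, adjusted p = 0.0224), and Eif2ak2, the kinase PKR, passed the test in neither genotype. Parp9, Ifi35 and Ifi44 passed it in neither as well, with changes of 0.49 for Parp9 and 0.54 for Ifi35 in knockout cells.

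The sensors moved in both directions. Ifih1, which encodes MDA5, a sensor of long double-stranded RNA, fell 2.13-fold in knockout and 4.15-fold in control cells, and Dhx58, which encodes LGP2, fell in control cells (change -1.30). Zbp1, a sensor of Z-form nucleic acid that can start cell death, had levels of 3.30, 3.32 and 3.82 on knockout stimulated arrays against 2.29, 2.44 and 1.93 on knockout resting arrays, and 4.38, 3.63 and 4.65 on control stimulated against 1.68, 2.26 and 1.99 on control resting arrays. All stimulated arrays were above all resting arrays. Zbp1 rose 2.4-fold in knockout cells (change 1.26, adjusted p = 0.014) and 4.74-fold in control cells (change 2.24, adjusted p = 0.000247). A second Zbp1 probe, well above background on 12 arrays but dimmer, changed by 0.32 in knockout and 0.14 in control cells, so the probes of this gene disagree. A second probe of Ddx58, the gene of RIG-I, changed by -0.97 in knockout and -1.24 in control cells, while the brighter probe passed the test in neither.

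**Figure D2:**
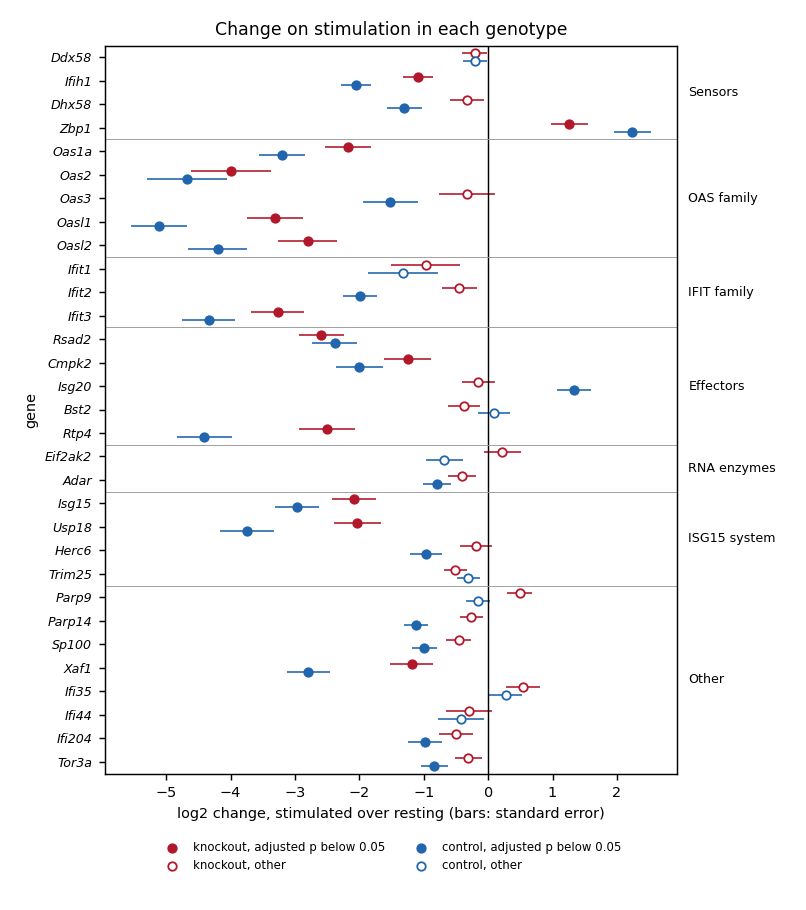
Log2 change of each member on stimulation, stimulated over resting (horizontal axis, bars are the standard error), in knockout and in control cells, grouped by role. Filled points passed an adjusted p of 0.05. The points of control cells lie further left for most genes, for instance Oasl1 at -3.31 in knockout and -5.11 in control cells, and Zbp1 lies to the right of 0 in both.

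The knockout was then set against the control within each state. In resting cells none of the 31 members was called by limma, 1 had an unadjusted p below 0.05, and each alternative setting also called 0. Over all features 0.0131% were called and 19.7% had an unadjusted p below 0.05. The members' median change was -0.21, which is also the median over all features. Rsad2 had levels of 0.36, 1.17 and 0.59 on knockout resting arrays and -0.31, -0.17 and -0.44 on control resting arrays, which do not overlap. Its change of 1.01 (SE 0.35) had an unadjusted p of 0.0159 and an adjusted p of 0.223. The other members changed by between -0.43 and 0.57.

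In stimulated cells 4 members were higher in knockout than in control cells and 1 was lower, so 5 of 31 were called, against 3.46% of all features (1.21% higher and 2.26% lower). The members' median change was 0.55, against -0.02 over all features, and 26 of 31 changes were above 0. With an unadjusted p below 0.05 there were 17 members, against 22.1% of all features. The knockout stimulated arrays lay wholly above the control stimulated arrays for 11 members (11.1% of all features) and wholly below them for 2 (14% of all features). Same-numbered arrays deviated together in this comparison, and with the replicate number as a block 10 members were called, 9 higher and 1 lower. Over all features that block called 1865 of 22981, against 796 without it. Because the level of 0 is set by each array's 75th percentile, these directions depend on the scaling. With arrays scaled to their median the median over all features moved to -0.58, 15 members lay above 0 and 16 below, and only Isg20 was called. The members' median was 0.57 above that of all features. Either scaling shifts all features of an array alike, so this gap cannot differ between them. It was 0.46 with quantile normalization, 0.35 with normexp background correction and 0.38 with only probes above background on all 12 arrays.

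Ifih1 had levels of -1.29, -1.26 and -0.67 on knockout stimulated arrays and -2.87, -2.29 and -2.29 on control stimulated arrays. Its resting levels were 0.06, -0.04 and 0.04 in knockout and -0.62, -0.35 and -0.33 in control cells. The genotypes did not overlap in either state, and both stimulated groups lay under their resting levels. Ifih1 was 2.66-fold higher in knockout stimulated cells (change 1.41, SE 0.23, adjusted p = 0.0132), by 1.30 on slide 1 and 1.62 on slide 2, and changed by 0.45 in resting cells (adjusted p = 0.278). Only 1 of the 3 control stimulated arrays was well above background for Ifih1, so the fold is imprecise, and with normexp background correction the change was 0.51 and with median scaling 0.85, neither called. A second Ifih1 probe was not well above background on any array.

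Ifit2 had levels of -0.88, -1.28 and -0.91 on knockout stimulated arrays and -2.64, -2.36 and -3.15 on control stimulated arrays. Its resting levels were -0.71, -0.08 and -0.94 in knockout and -0.85, -0.63 and -0.72 in control cells. The control stimulated arrays stood apart from the other groups and none was well above background. Ifit2 was therefore at least 1.64-fold higher in knockout stimulated cells (change 1.69, SE 0.27, adjusted p = 0.0127), by 1.42 on slide 1 and 2.24 on slide 2. Ifit1 and Ifit3, its neighbours in the family, changed by 0.01 and 0.69 without passing the test, and both were also not well above background on control stimulated arrays.

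Herc6 had levels of -0.48, -0.64 and -0.94 on knockout stimulated arrays and -1.69, -2.27 and -1.39 on control stimulated arrays, which do not overlap. Its resting levels were -0.24, -0.41 and -0.83 in knockout and -0.87, -0.78 and -0.79 in control cells. With 1 of 3 control stimulated arrays well above background, it was 2.14-fold higher (change 1.10, SE 0.25, adjusted p = 0.0437), by 1.42 on slide 1 and 0.45 on slide 2. A second Herc6 probe, well above background on 8 arrays, changed by -0.10, so the probes disagree and the mean over them was not called. Xaf1, whose product binds the apoptosis inhibitor XIAP, had levels of 0.49, 0.01 and 1.02 on knockout stimulated arrays and -1.06, -1.23 and -0.35 on control stimulated arrays. Its resting levels were 1.21, 1.84 and 2.04 in knockout and 1.68, 1.95 and 2.10 in control cells. Every knockout stimulated array was above every control stimulated one, and Xaf1 was 2.62-fold higher (change 1.39, SE 0.33, adjusted p = 0.0488), by 1.40 on slide 1 and 1.37 on slide 2. The call of Herc6 held in 5 of 25 other settings and ended in 11 of 12 fits that left out 1 array, and that of Xaf1 held in 7 of 25 and ended in 11 of 12.

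Isg20 was the member that went the other way. Its levels were 3.45, 3.46 and 3.96 on knockout stimulated arrays and 5.35, 4.59 and 5.19 on control stimulated arrays, against resting levels of 3.43, 4.13 and 3.75 in knockout and 3.70, 3.82 and 3.62 in control cells. The control stimulated arrays were above all other arrays, and the knockout stimulated arrays lay within the range of the resting ones. Isg20 was 2.67-fold lower in knockout stimulated cells (change -1.42, SE 0.26, adjusted p = 0.0197), by -1.51 on slide 1 and -1.23 on slide 2. A second Isg20 probe, well above background on 12 arrays, changed by -1.54. The call held in 19 of 26 other settings.

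**Figure D3:**
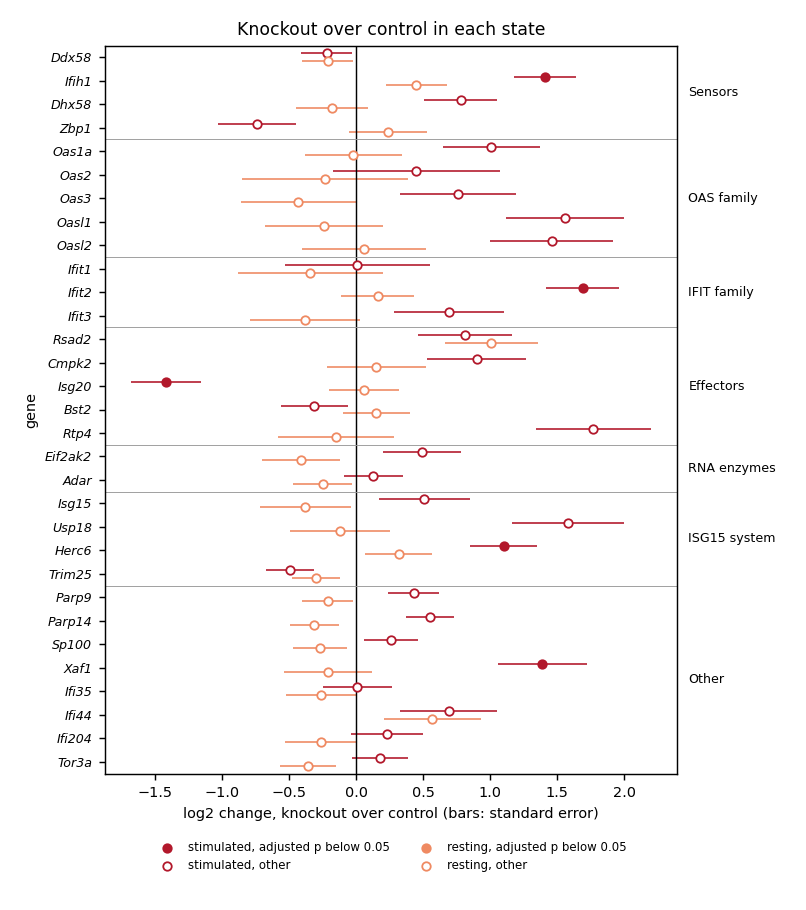
Log2 change of each member, knockout over control (horizontal axis, bars are the standard error), in stimulated and in resting cells, grouped by role. Filled points passed an adjusted p of 0.05. Ifih1, Ifit2, Herc6 and Xaf1 are filled to the right of 0 and Isg20 to the left at -1.42 in stimulated cells, and no point is filled in resting cells.

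Several members came near the threshold in stimulated cells. Rtp4, whose levels are given above, did not overlap between the genotypes and changed by 1.77 (SE 0.43, adjusted p = 0.0526), and by 1.41 on slide 1 and 2.49 on slide 2. Usp18 changed by 1.58 (adjusted p = 0.075), Oasl1 by 1.56 (adjusted p = 0.0818) and Oasl2 by 1.46 (adjusted p = 0.112). With the replicate block Rtp4 (adjusted p = 0.0153), Usp18 (0.0284), Oasl1 (0.0346), Dhx58 (0.0252) and Oas1a (0.0262) passed as well, and Oasl2 did not (0.0544). All 5 OAS changes were above 0, with a median of 1.01, although none was called and Oas2 was at -0.11 under median scaling. Zbp1 changed by -0.74 (adjusted p = 0.177) and Trim25 by -0.49 (adjusted p = 0.153). Isg15 changed by 0.51 (adjusted p = 0.386), and Ifi35 and Ifit1 by 0.01 each. Leaving out replicate 1 of the control genotype in both states, or replicate 2 of the knockout stimulated arrays, left no member called in this comparison. Over all features those fits called 38 of 25781 and 48 of 30356, against 796 of 22981 as reported. Without replicate 1 of the control genotype 11 members were called on stimulation in knockout cells and 18 in control cells. The rise of Isg20 in control cells (change 1.17, adjusted p = 0.0534) and the falls of Oas3, Herc6, Ifi204 and Tor3a in those cells were no longer called, nor were those of Cmpk2 and Xaf1 in knockout cells.

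Whether stimulation acted differently in the genotypes was tested by the interaction, the change on stimulation in knockout cells minus that in control cells. No member was called by limma, against 0.144% of all features, and 11 members had an unadjusted p below 0.05, against 10.6% of all features. The interaction was above 0 for 25 members and below 0 for 6, with a median of 0.75, against 0.08 over all features. Ifit2 had an interaction of 1.54 (SE 0.38, adjusted p = 0.157) and Isg20 of -1.48 (SE 0.37, adjusted p = 0.161). Xaf1, Rtp4, Oasl1 and Usp18 had interactions of 1.60, 1.92, 1.80 and 1.71, with adjusted p between 0.223 and 0.3. With trend and robust settings of limma Isg20 passed (adjusted p = 0.0219). The knockout comparison in stimulated cells, both stimulation comparisons and the interaction share arrays, so their values for a gene are not independent.

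Other genes of the interferon pathway were examined as a list of 43 ligands, receptors, signalling proteins, inhibitors and upstream sensors, of which 34 were tested. In knockout stimulated cells 5 were higher and none lower than in control stimulated cells, against 1.21% of all features higher and 2.26% lower, and in resting cells none of the 34 was called by limma, with 5 at an unadjusted p below 0.05. Of the type I ligands, none could be tested. Ifna4 and Ifne were not well above background on any array, and Ifnb1, Ifna1, Ifna2, Ifnk and Ifna5 were on 4, 4, 4, 5 and 7 of 12 arrays. The receptor genes Ifnar1, Ifnar2, Ifngr1 and Ifngr2 did not pass the test between genotypes in either state.

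Ifng, which encodes interferon gamma, had levels of 3.09, 3.21 and 3.29 on knockout stimulated arrays and -0.30, -2.12 and -1.40 on control stimulated arrays. Resting levels were -2.62, -1.82 and -2.10 in knockout and -2.69, -2.46 and -2.77 in control cells. The knockout stimulated arrays stood far above all others and close together. Ifng was 22.1-fold higher in knockout stimulated cells (change 4.47, SE 0.39, adjusted p = 0.00152), and its interaction of 4.01 (SE 0.55, adjusted p = 0.0333) passed the test.

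Irf1, a factor induced by interferon gamma, had levels of 6.03, 5.66 and 6.06 on knockout stimulated arrays and 4.59, 4.19 and 4.56 on control stimulated arrays, against 5.13, 5.33 and 5.31 in knockout resting and 5.49, 5.56 and 5.67 in control resting cells. The control stimulated arrays were lowest without overlap, and the knockout stimulated arrays overlapped the control resting arrays alone. Irf1 was 2.78-fold higher in knockout stimulated cells (change 1.47, SE 0.19, adjusted p = 0.00528), and its interaction of 1.79 passed the test (SE 0.27, adjusted p = 0.0427). Irf1 rose on stimulation in knockout cells (change 0.66, adjusted p = 0.038) and fell in control cells (change -1.13, adjusted p = 0.00122). The rise in knockout cells held in 9 of 26 other settings and ended in 9 of 12 fits that left out 1 array.

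Nlrc5, a regulator of MHC class I genes, had levels of 3.98, 3.76 and 3.88 on knockout stimulated arrays and 2.87, 2.55 and 2.35 on control stimulated arrays, and was 2.43-fold higher in knockout cells (adjusted p = 0.0118). Irf9, the DNA-binding part of the type I complex, had levels of 3.87, 3.46 and 3.76 on knockout stimulated arrays and 2.93, 2.57 and 2.97 on control stimulated arrays, and was 1.83-fold higher (adjusted p = 0.0376). Cgas, the sensor of cytosolic DNA, had levels of -0.18, 0.13 and 0.22 on knockout stimulated arrays and -1.10, -1.34 and -0.72 on control stimulated arrays, and was 2.16-fold higher (adjusted p = 0.0271). None of these 3 genes overlapped between the genotypes in stimulated cells. The call of Irf9 ended in 12 of 12 fits that left out 1 array (adjusted p 0.0529 to 0.171) and held in 9 of 26 other settings, and that of Cgas ended in 7 of 12 and held in 11 of 25. Without replicate 1 of the control genotype in both states, the knockout calls of Irf1 (adjusted p = 0.0611), Nlrc5 (0.0727), Cgas (0.167) and Irf9 (0.187) ended, as did the interactions of Ifng (0.109) and Irf1 (0.287). Irf7 changed by 0.53 (adjusted p = 0.44).

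On stimulation 6 of the 34 pathway genes rose and 7 fell in knockout cells, and 3 rose and 13 fell in control cells, against 10.9% of all features higher and 5.2% lower in knockout cells and 14.7% higher and 13.1% lower in control cells. Socs1, an inhibitor of JAK kinases, rose by 3.62 on the log2 scale in knockout cells (adjusted p = 8.57e-05) and by 2.91 in control cells (adjusted p = 0.000124), and Jak2 rose by 1.66 in knockout and 1.35 in control cells. Trim30a, an inhibitor of inflammatory signalling, and Ifngr1 fell in both genotypes, Trim30a with changes of -1.33 in knockout and -2.23 in control cells and Ifngr1 with -1.58 in knockout and -2.15 in control cells. So did Jak1, with -0.86 in knockout and -1.63 in control cells. Irf7, a factor that amplifies type I interferon production, changed by -1.67 in knockout and -1.93 in control cells, both past the test. Irf9 fell in control cells (change -1.69, adjusted p = 0.00012).

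**Figure D4:**
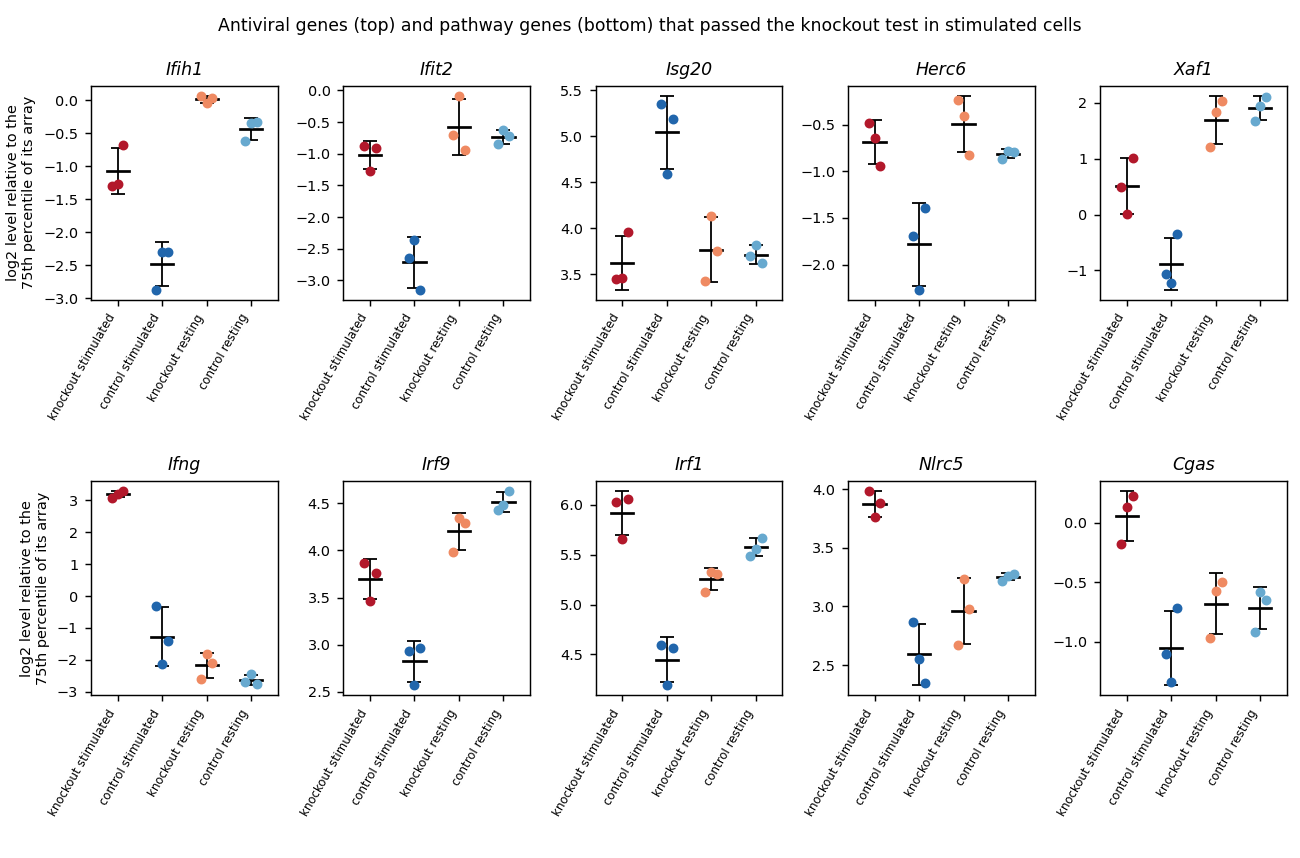
Log2 level relative to the 75th percentile of the array (vertical axis) of the 5 members (top) and 5 pathway genes (bottom) called between genotypes in stimulated cells, by group (horizontal axis). Points are arrays, and bars are the mean and SD of 3 arrays. Ifng is near 3 on knockout stimulated arrays and under 0 on all others, and Isg20 is highest in control stimulated cells.

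Markers of some other cells moved with the genotype in stimulated cells, and the levels of some lists also differed between the genotypes at rest. Over all features 1.21% were higher and 2.26% lower in knockout stimulated cells. Of 6 tested neutrophil markers none was called, with 4 changes above 0, 2 below and a median of 0.79. Of 4 tested platelet markers none was called, with 2 changes above 0, 2 below and a median of -0.06. The arrays hold RNA of a whole preparation, in which fewer cells of a type and less RNA per cell cannot be told apart. Of 10 tested macrophage and monocyte markers 6 were higher in knockout stimulated cells, with a median change of 2.24, among them C1qa, a complement gene of macrophages (at least 4.21-fold, adjusted p = 0.00206). Their summed level relative to the 75th percentile was 37.2 to 42.6 on knockout stimulated, 13 to 28.3 on control stimulated, 89.4 to 123 on knockout resting and 47.4 to 63.1 on control resting arrays, and Fcgr1 was not well above background. Of 6 tested NK cell markers 3 were higher, among them the granzyme gene Gzmb (change 3.14, adjusted p = 0.00554), with summed levels of 218 to 422 on knockout stimulated and 35 to 36.5 on control stimulated arrays, and 7.39 to 10.4 on knockout resting and 5.28 to 8.86 on control resting arrays. On stimulated arrays the NK cell sums rest mostly on the granzyme genes Gzma and Gzmb. Their mean levels were 7.60 and 5.92 on knockout stimulated and 4.50 and 2.78 on control stimulated arrays. Those of Ncr1, Klrb1c and Prf1 were -0.68, 0.29 and 0.42 on knockout stimulated arrays. Klrk1 and Klrd1 of that list were not well above background. Ncr1 changed by 1.29 (adjusted p = 0.271), Klrb1c by 2.14 (adjusted p = 0.232) and Prf1 by 0.50 (adjusted p = 0.598). Of 5 plasma cell markers 4 were lower in knockout stimulated cells, with sums of 180 to 238 on knockout stimulated and 359 to 579 on control stimulated arrays. Of 4 tested plasmacytoid dendritic cell markers 1 was higher and 3 had changes below 0, with a median of -0.35. Their sums overlapped, at 49.7 to 138 in knockout stimulated and 54.2 to 225 in control stimulated cells. Of 7 tested T cell markers 1 was higher, Cd3g of the T cell receptor complex (4.71-fold, adjusted p = 0.0481), and 6 of 7 changes were above 0, with a median of 0.85. Cd3d, of the same complex, changed by 2.18 (adjusted p = 0.0937), Cd8b1 was not well above background, and the T cell sums were 6.21 to 13 on knockout stimulated and 4.24 to 10 on control stimulated arrays. Of 3 tested erythroid markers 1 was higher, the globin gene Hba-a1 (at least 10.8-fold, adjusted p = 0.0437), with sums of 3.12 to 12 on knockout stimulated and 2.28 to 6.49 on control stimulated arrays. Another globin gene, Hbb-bt, changed by -0.43 (adjusted p = 0.789), and Alas2 of that list by 0.20 (adjusted p = 0.933). B cell markers summed to 531 to 646 on knockout stimulated and 491 to 691 on control stimulated arrays, with 2 of 9 lower. These were Cd79a, from which the Cre is expressed, and Fcer2a (change -1.01, adjusted p = 0.0421). On resting arrays B cell sums were 692 to 817 in knockout and 1030 to 1210 in control cells. Plasma cell sums there were 152 to 211 in knockout and 80 to 98.7 in control cells. At rest 6 of 9 B cell and 8 of 10 macrophage markers had an unadjusted limma p below 0.05, against 19.7% of all features, and none was called. Cd79a was among these B cell markers. The part of these cell types in the changes of the antiviral genes, and of Ifng, was not tested. On stimulation the macrophage markers fell as well, 7 of 10 in knockout and 6 of 10 in control cells. Over all features 5.2% fell in knockout and 13.1% in control cells. The part of the macrophage markers in the fall of the antiviral genes was not tested.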

How the data were processed

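Intensities are the processed Cy3 signals, background-subtracted on a linear scale, that the authors obtained with Agilent Feature Extraction 10.7.3.1 per the file headers (9.1 per the submitters' processing notes). The series matrix differs from them by rounding alone, by at most 0.497%. Each array holds 62976 spots, 59305 of them not controls, and none was saturated. From these intensities, log2 values were computed relative to the 75th percentile of the non-control spots of each array (the authors' intensities are not on a log2 scale). Outlier spots were set to missing (330 values of tested features), spots of a probe were averaged, and a probe was kept where some group had it well above background on its 3 arrays. Transcript accessions named 26413 of 55681 probes through RefSeq genes of GRCm38.p6, with Cgas and Sting1 for the older symbols, and the brightest probe stood for a gene. Another 10686 features are single unnamed probes.

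Groups came from the sample labels. limma 3.58.1 (R 4.3.3, data.table version 1.17.8) was fitted to all 12 arrays with 4 group means and 8 residual degrees of freedom. P-values of each of 5 comparisons were adjusted by Benjamini-Hochberg over 22981 features, with a threshold of 0.05, and every adjusted p is limma's. Where the dimmer group was not well above background on any array, a fold is given as at least that between the brighter mean and the higher of the dim values and the lowest signal detected on those arrays. The members, the lists and the named genes were chosen with earlier results of these data known. All called members are named in the knockout comparisons, with the members of smallest p where none was called, and called members by role for stimulation. The values of 1 pathway gene are not reported here.

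Within a comparison, arrays with the same number deviated together from the group means, with correlations of 0.35, 0.33 and 0.48 in the stimulated knockout comparison and 0.42, 0.43 and 0.51 for stimulation in control cells, and so the numbers were taken to pair the arrays there. The fit was tested on simulated data. Alternatives covered blocks, scaling, background correction (normexp with offset 50, on median signals), filters, probes and left-out arrays.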

Additional observations from a re-analysis of the deposited data

Results flagged for a closer look

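Ifng and Irf1 responded differently to stimulation in the 2 genotypes by the test of the difference itself. The change of Ifng on stimulation was 5.38 in knockout and 1.37 in control cells, an interaction of 4.01 (limma, adjusted p = 0.0333), with a higher level on all 3 knockout stimulated arrays than on any other array. The change of Irf1 was 0.66 in knockout and -1.13 in control cells, an interaction of 1.79 (adjusted p = 0.0427). Both calls held in 10 other settings, of 24 for Ifng and 25 for Irf1. With the replicate block Irf1 passed (adjusted p = 0.045) and Ifng did not (0.055), and leaving out 1 array ended the Ifng call in 10 of 12 cases and the Irf1 call in 11 of 12.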

How the results depend on the processing

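No result changed direction while called. For the knockout comparison in stimulated cells, 5 members were called as reported, 10 with the replicate block that pairs same-numbered arrays, 9 with the slide as a block and 8 with trend and robust settings. Other scalings gave 3 (quantile), 1 (median) and 17 (percentile over 12977 spots detected on every array), and of all called features 34.8% were higher as reported, 57.1%, 11.9% and 84.2% in these scalings and 44.2% with the replicate block. Normexp left 1, a filter on all 12 arrays 2 of 12 tested members, and no member was called with only the 2 groups fitted, with no filter, on slide 1 alone, or without control replicate 1 in both states. Over all features the fits without a called member gave 0 of 22981, 56 of 49286, 6 of 23423 and 38 of 25781, in that order. Leaving out 1 array gave 0 to 6, with 0 without knockout stimulated replicate 2, 1 without control stimulated replicate 1 and 2 without knockout stimulated replicate 1. Over all features these named fits called 48 of 30356, 153 of 23128 and 115 of 23726, against 796 of 22981 as reported. Calls held in 16 of 25 other settings for Ifih1 and Ifit2. For stimulation in knockout cells, the percentile over detected spots gave 20 members against 13, and leaving out 1 array 9 to 13. The filter on all 12 arrays gave 4 there, 2 higher and 2 lower, against 1 higher and 12 lower as reported. In control cells that filter gave 7 against 23, of which 2 were higher and 5 lower. Over all features it called 3770 of 10275 in knockout and 5041 in control cells. The members' median change under it was -0.28 in knockout and -0.26 in control cells. Over all features the medians were 0.23 and 0.21. Leaving out 1 array gave 19 to 24 members in control cells. Of all features called on stimulation, 67.7% were higher in knockout cells as reported, 51.6% with quantile normalization and 36.3% with the percentile over detected spots, and in control cells 52.9%, 41.8% and 29.2%. Fewer members are tested under the filter on all 12 arrays, and the cause of the other differences was not tested. The interaction called 1 member, Isg20, with trend and robust settings and 1 with the filter on all 12 arrays, and 0 to 0 without any 1 array, as did the resting comparison. The replicate block moved no other count of members by over 1.5 times. Low signal limits Ifit1, Ifit2, Ifit3 and Rsad2, not well above background on any control stimulated array, and Ifih1, Oas2, Oas3, Oasl2, Rtp4 and Herc6, above it on 1 of 3.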
